A study of Homo sapiens with 6 samples.

Results

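The replication-dependent histone genes are the clustered genes that supply H1, H2A, H2B, H3 and H4 for packing newly copied DNA. They were taken as every row whose older symbol began with HIST1H, HIST2H, HIST3H or HIST4H, without the 15 rows whose symbols mark pseudogenes, which left 74 of the 58884 genes in the table. There were 55 genes of the HIST1 cluster on chromosome 6, 14 of HIST2, 4 of HIST3 on chromosome 1 and 1 of HIST4. By class there were 6 linker H1 genes, 17 H2A genes, 22 H2B genes, 14 H3 genes and 15 H4 genes. Among the H2B rows, HIST2H2BA, HIST2H2BD and HIST3H2BA are annotated as pseudogenes in GENCODE although their symbols do not mark them so. HIST2H2BB carries a pseudogene name, H2BP2, in RefSeq.

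Total RNA from untreated human esophageal squamous cell carcinoma cells was sequenced in 3 libraries of KYSE70 and 3 libraries of NRF2null-KYSE70. KYSE70 carries a missense mutant of NRF2, the transcription factor encoded by NFE2L2, whereas NRF2null-KYSE70, also called the clone here, is 1 clone of these cells made with CRISPR-Cas9 and a guide against exon 2 of NFE2L2. Both lines therefore share the KYSE70 background. A change can belong to this clone or to its reduced NRF2, which cannot be told apart here. The study saw a faint, smaller NRF2 band in the clone and states that some NRF2 expression remained. Nothing states that the 3 libraries of a line came from separate cultures, so p-values measure only the spread between these libraries.

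Histone mRNAs of these clusters are made mainly in S phase and usually lack introns and a poly(A) tail. Their mRNAs end instead in a short conserved stem-loop, which is bound by the stem-loop binding protein SLBP and cut by a complex that contains the U7 small nuclear RNA. Many H2A and H2B genes stand head to head and share the DNA between their starts. Some of the genes can also be read past the stem-loop into longer, polyadenylated transcripts.

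To show what most members share, the stem-loops of 4 called genes and of HIST1H1C, HIST1H2BK and HIST1H4C, which had high levels, are given as DNA from the hg38 genome, with the stem-loop core in capitals and 5 flanking bases on each side.
HIST3H2A (chr1:228457364-228457389, minus strand): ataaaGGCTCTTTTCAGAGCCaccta
HIST3H2BB (chr1:228458533-228458558, plus strand): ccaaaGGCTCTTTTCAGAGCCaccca
HIST1H1C (chr6:26055739-26055764, minus strand): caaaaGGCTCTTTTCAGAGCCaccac
HIST1H2BK (chr6:27146361-27146386, minus strand): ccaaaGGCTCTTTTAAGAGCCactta
HIST1H3J (chr6:27890315-27890340, minus strand): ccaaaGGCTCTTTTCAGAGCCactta
HIST1H3H (chr6:27810511-27810536, plus strand): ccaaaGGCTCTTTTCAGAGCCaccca
HIST1H4C (chr6:26104312-26104337, plus strand): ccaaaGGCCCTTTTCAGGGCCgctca

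All 6 members called in the comparison given next, higher and lower alike, carried the core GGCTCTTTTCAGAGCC, which 37 members held. The H4 gene HIST1H4C carried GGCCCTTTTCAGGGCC, which 9 members held. A search of the sense strand for the 16-base stem-loop pattern of histone mRNA (9 of its bases fixed and the others left free) found it in the last 80 bases of a GENCODE transcript for 63 of the 69 members with an annotation, and for 21 of 19636 other protein-coding genes (0.107%). These are matches of letters and were not measured as bound sites.

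Members were few in reads. They held between 3930 and 5041 reads per library, or 0.00614% to 0.00865% of 52072801 to 63975313 reads in genes. Of the 74 members, 37 averaged 10 normalized counts or more across libraries and were tested, 19 had reads but stayed below that limit, and 18 had no read in any library. Since the study does not state whether polyadenylated RNA was selected, these low levels describe the libraries and not the amount of histone mRNA in the cells. In bulk RNA, fewer cells making a histone mRNA and less of it per cell cannot be told apart.

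Values are normalized counts, that is, reads divided by a size factor that the authors computed for each library. Folds are NRF2null-KYSE70 over KYSE70, and a gene was called when its log2 fold change reached 1 in size with a Benjamini-Hochberg adjusted p below 0.05 from limma on log2(normalized count + 1). Under this rule 6 of the 37 tested members were called, 2 higher and 4 lower, while 14.7% of all 15994 tested genes were called, 7.23% higher and 7.43% lower. Past adjusted p alone there were 11 members, 5 higher and 6 lower, beside 57.6% of all tested genes, 29.3% higher and 28.3% lower. The lines did not overlap in any library for 11 members, 6 higher and 5 lower, beside 63.4% of all tested genes. The histone genes moved both ways, with a median log2 fold change of -0.21 over the 37 and -0.01 over all tested genes. Without KYSE70 library 3 (libraries are numbered by their order in the table) the median of the members was 0.04, and 4 members were called, 3 higher and 1 lower. Their estimates were less precise than those of most genes, with a median standard error (SE) of 0.33 against 0.09 for all tested genes.

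**Figure D1:**
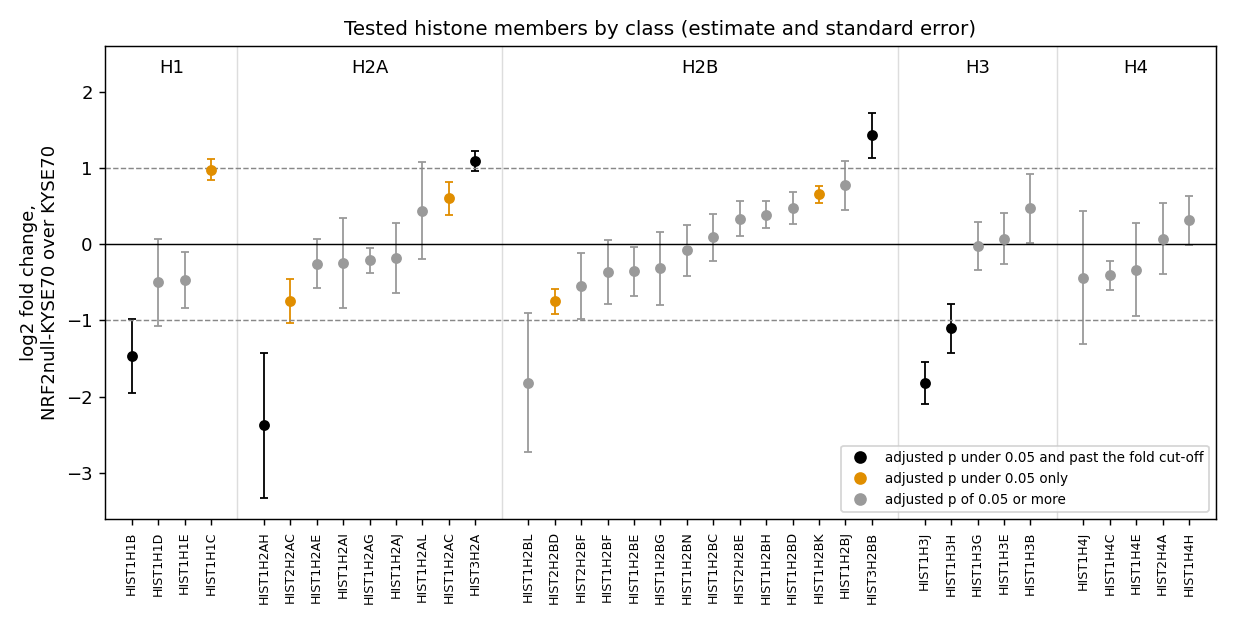
Log2 fold change (NRF2null-KYSE70 over KYSE70, on log2(normalized count + 1)) of the 37 tested members, ordered within each class; points are estimates, bars are SE, and dashed lines mark the fold cut-off of 1. Of the 37, 15 lay above 0 and 22 below, and the called genes were HIST3H2A, HIST3H2BB, HIST1H3J, HIST1H3H, HIST1H1B and HIST1H2AH.

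As a check of the labels, NFE2L2 itself had normalized counts of 9839, 9906 and 10040 in KYSE70 and 5803, 6041 and 6434 in NRF2null-KYSE70, so its mRNA persisted at 61.4% of the parental mean. An edit of exon 2 need not remove the mRNA. All 8 squamous epithelial markers were expressed in both lines, with KRT14 called higher; on adjusted p alone 4 were higher and 4 (KRT5, TP63, DSG3 and PKP1) lower by between 0.74 and 0.92 on the log2 scale, and the median of the list was -0.07. Of 9 markers of other cell types 3 were tested and called, PTPRC and VWF higher and COL1A1 lower, while COL1A2 and DCN had no read and the summed level of the list, most of it COL1A1, was 1329 to 1490 in KYSE70 and 791 to 1096 in NRF2null-KYSE70. PTPRC averaged 0.35 normalized counts in KYSE70 and 43.6 in the clone, and VWF 142 and 353. Their part in the histone results was not tested. KYSE70 library 3 gave the highest of the 3 KYSE70 values for 24 of the 37 tested members (64.9%), compared with 33.1% of all tested genes.

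The linker histones bind DNA where it enters and leaves the nucleosome. HIST1H1C (H1-2 in current naming) was the H1 gene with the highest level, at 340, 337 and 449 normalized counts in KYSE70 and 626, 791 and 795 in the clone. The lines did not overlap, and it rose by 0.98 on the log2 scale (SE 0.13, adjusted p = 4.33e-05), just short of the fold cut-off. Without KYSE70 library 3 its log2 fold change was 1.11, without library 1 of the clone 1.09 and with quantile normalization 1.02, and in each of these it was called.

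HIST1H1B (H1-5) went the other way at a much lower level, with 16.9, 24.5 and 34.8 in KYSE70 and 8.11, 5.88 and 11.4 in NRF2null-KYSE70. Every value in the clone was below every parental value, and the log2 fold change was -1.46 (SE 0.48, adjusted p = 0.0205). This call rested on 79 reads against 24, and the adjusted p was 0.0560 without KYSE70 library 2, 0.0920 without KYSE70 library 3 and 0.0575 without library 2 of the clone, in a range of 0.0150 to 0.0920 over all alternatives. HIST1H1D and HIST1H1E did not pass, and HIST1H1A and HIST1H1T, a testis H1, had no read.

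The H2A genes encode one partner of the H2A-H2B dimer that caps the nucleosome. HIST3H2A (chr1:228434777-228457873, minus strand), which lies in the small cluster on chromosome 1, had 391, 404 and 485 normalized counts in KYSE70 and 733, 1005 and 1005 in the clone. All 3 values in the clone were above all 3 parental values, a 2.14-fold difference in means and a log2 fold change of 1.09 (SE 0.13, adjusted p = 1.39e-05). It was the only one of the 9 tested H2A genes to be called higher.

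HIST1H2AC rose by 0.60 on the log2 scale (SE 0.22, adjusted p = 0.0315), with 129, 162 and 141 in KYSE70 and 149, 263 and 265 in NRF2null-KYSE70. The lowest library of the clone fell within the parental range, and the adjusted p ran from 0.000373 to 0.127 over the alternatives and missed 0.05 under 6 of them, including those without KYSE70 library 1 (0.0934), KYSE70 library 3 (0.0712), library 2 of the clone (0.127) or library 3 of the clone (0.125). HIST1H2AG had 158, 202 and 187 in KYSE70 and 142, 164 and 166 in NRF2null-KYSE70, with overlapping lines and a log2 fold change of -0.21 (SE 0.16, adjusted p = 0.288). HIST2H2AC fell by 0.75 on the log2 scale (adjusted p = 0.0416), with means of 86.0 and 51.1 and no overlap.

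HIST1H2AH was called lower with a log2 fold change of -2.37 (SE 0.95, adjusted p = 0.0478), from 24.0, 7.26 and 18.98 in KYSE70 to 1.01, 0 and 13.7 in NRF2null-KYSE70. The lines overlapped, because the third library of the clone exceeded the second of KYSE70. The call was lost under 12 of the 18 alternative settings that could test this gene, among them each library left out except library 3 of the clone, and the adjusted p ran from 0.00463 to 0.155.

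In the H2B class, HIST1H2BK was the member with the most reads, at 585, 599 and 730 normalized counts in KYSE70 and 895, 1029 and 1080 in the clone. All values in the clone were higher, and it rose by 0.65 on the log2 scale (SE 0.11, adjusted p = 0.000165). Per kilobase of GENCODE exon (495 bases) its level was 1289 normalized counts in KYSE70 and 2022 in the clone, the highest of the members with an annotated length. RefSeq gives the gene a span of 8566 bases. Which annotation was counted is uncertain, so this rank is too.

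HIST3H2BB (chr1:228458103-228463104, plus strand) was the only H2B gene past both thresholds. It had 26.7, 21.8 and 38.0 normalized counts in KYSE70 and 86.2, 68.6 and 77.6 in the clone. The lines were well apart, with a 2.69-fold difference in means and a log2 fold change of 1.43 (SE 0.29, adjusted p = 0.00106). A microRNA gene, MIR4666A, lies within its annotated exons on the same strand.

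HIST1H2BD had 115, 102 and 172 in KYSE70 and 162, 159 and 210 in NRF2null-KYSE70, with overlap and an adjusted p of 0.0751 (log2 fold change 0.47, SE 0.21), and it passed at 0.0364 with quantile normalization and at 0.0129 without KYSE70 library 3, in a range up to 0.265. HIST1H2BJ had 31.1, 19.96 and 33.7 against 45.6, 43.1 and 55.9, with no overlap and an adjusted p of 0.0553 (log2 fold change 0.78, SE 0.32), and it passed under 4 alternatives (adjusted p 0.0287 to 0.0486, in a range up to 0.172), one of them without KYSE70 library 3. HIST1H2BC had 47.1, 68.9 and 58.0 against 46.7, 52.0 and 93.6, a log2 fold change of 0.09 (SE 0.30, adjusted p = 0.823). HIST1H2BC overlaps HFE on the other strand, and no source states whether counting used strand.

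HIST2H2BD, annotated as a pseudogene in GENCODE although its symbol does not mark it as one, fell by 0.75 on the log2 scale (SE 0.17, adjusted p = 0.00181). Its counts were 302, 391 and 315 in KYSE70 and 225, 220 and 159 in NRF2null-KYSE70, without overlap. A long non-coding RNA gene overlaps its exons on the same strand, so reads of both could not be told apart.

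H3 pairs with H4 to form the core of the nucleosome, and the decrease of 1 gene of this class held under all 19 alternatives. HIST1H3J (chr6:27890315-27893106, minus strand) had 147, 183 and 183 normalized counts in KYSE70 and 38.5, 37.3 and 74.2 in the clone. All 3 values in the clone were below all parental values, at 29.2% of the parental mean and a log2 fold change of -1.82 (SE 0.27, adjusted p = 8.25e-05). Its annotated exons overlap those of HIST1H2AM on the same strand, and HIST1H2AM was listed at 0 in every library.

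HIST1H3H was called lower with a log2 fold change of -1.11 (SE 0.33, adjusted p = 0.0113), from 40.9, 45.4 and 62.2 in KYSE70 to 18.3, 23.5 and 25.1 in NRF2null-KYSE70. The lines did not overlap, but without KYSE70 library 3 its adjusted p was 0.0558, in a range of 0.00678 to 0.0558 over all alternatives, and the fold cut-off was missed without library 1 of the clone (-0.97), with a pseudocount of 5 (-0.99) and with quantile normalization (-0.98). The other 3 tested H3 genes, HIST1H3B, HIST1H3E and HIST1H3G, had log2 fold changes of 0.47, 0.07 and -0.02, and none passed.

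None of the 5 tested H4 genes passed adjusted p in the limma fit described above, DESeq2 or edgeR, and 1 of them, HIST1H4C, had an unadjusted limma p under 0.05 (0.0471). HIST1H4C had 221, 210 and 303 normalized counts in KYSE70 and 186, 148 and 218 in the clone. The lines overlapped, with a log2 fold change of -0.41 (SE 0.19, adjusted p = 0.0767). Over the alternatives its adjusted p ran from 0.0360 to 0.305, passing at 0.0389 when scaled to total reads and at 0.0360 without library 3 of the clone (log2 fold change -0.54), while it was -0.25 without KYSE70 library 3 and -0.26 without library 2 of the clone. The 5 estimates ran from -0.44 to 0.32.

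**Figure D2:**
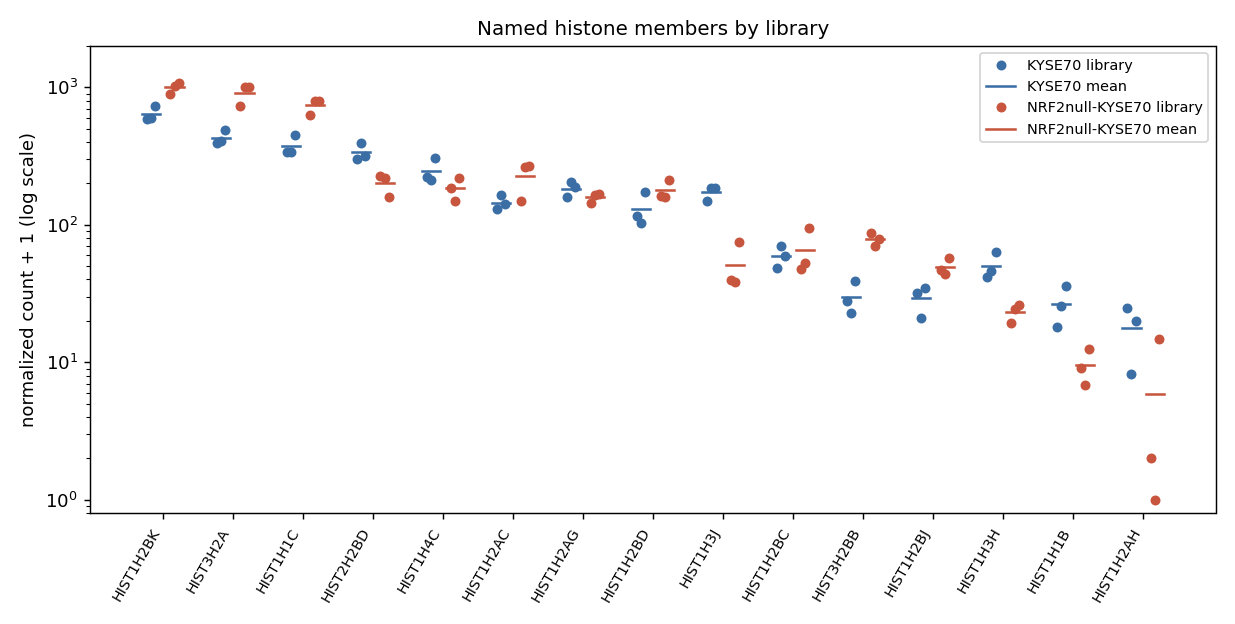
Normalized count + 1 on a log scale in each of the 3 KYSE70 and 3 NRF2null-KYSE70 libraries for 15 members, ordered by mean; points are libraries and short lines are means. The lines were apart for HIST1H2BK, HIST3H2A, HIST1H1C, HIST3H2BB and HIST1H2BJ (higher in NRF2null-KYSE70) and for HIST2H2BD, HIST1H3J, HIST1H3H and HIST1H1B (lower), and overlapped for HIST1H2AH.

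Summed over all members of a class, the linker and H2A-H2B classes had higher levels in NRF2null-KYSE70 and the H3 class lower. The H1 sum was 423, 410 and 588 normalized counts in KYSE70 and 706, 848 and 840 in the clone. For H2A the sums were 884, 977 and 1087 against 1154, 1613 and 1619. None of the libraries overlapped in either class, and the same was true of H2B at 1539, 1635 and 1903 against 1964, 2072 and 2158.

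The H3 sum was 317, 367 and 393 in KYSE70 and 184, 187 and 221 in NRF2null-KYSE70, a ratio of means of 0.55. The H4 sums overlapped, at 333, 288 and 453 against 331, 223 and 306. Each sum was led by 1 gene. Without HIST1H1C the H1 ratio turned from 1.68 to 0.62, without HIST3H2A the H2A ratio went from 1.49 to 0.99, and without HIST1H2BK the H2B ratio went from 1.22 to 1.01. The H3 ratio was 0.78 without HIST1H3J. These sums are descriptions and were not tested.

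**Figure D3:**
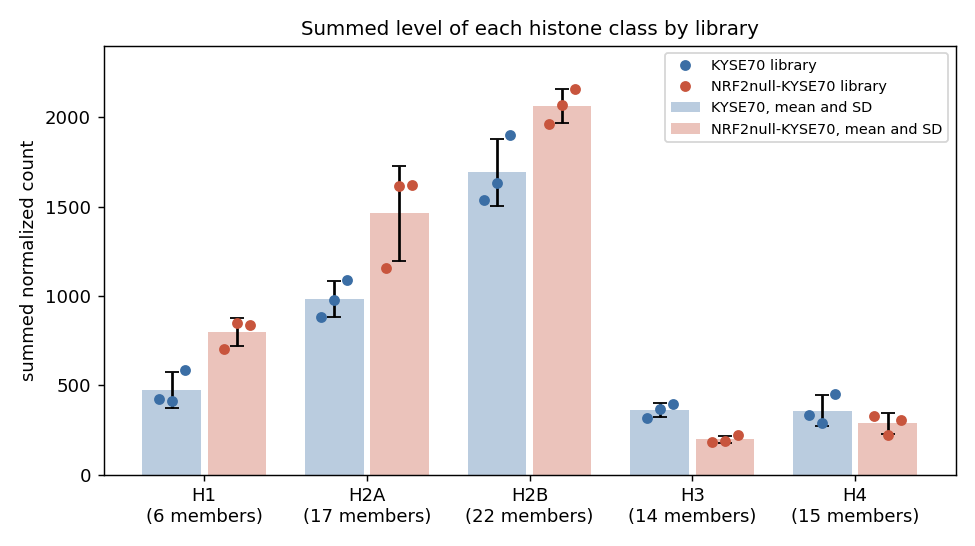
Summed normalized count of the members of each histone class, with bars for the mean and SD of 3 libraries and points for single libraries. H1, H2A and H2B sums were higher and the H3 sum lower in NRF2null-KYSE70 without overlap, and the H4 sums overlapped.

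The 3 members with the highest mean, HIST1H2BK, HIST3H2A and HIST1H1C, took 36.4% to 37.7% of all member signal in the KYSE70 libraries and 52.0% to 57.2% in the NRF2null-KYSE70 libraries. The total of all 74 members was 3866 ± 493 in KYSE70 and 4808 ± 420 in the clone (SD, n = 3), and the third KYSE70 library lay above the first library of the clone. Without those 3 genes, the other 71 summed to 2426 ± 301 and 2156 ± 96.0.

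Of all 15994 tested genes, 7911 had positive estimates. Among the 11 tested members with a mean of at least 100 normalized counts, 7 estimates were positive. Their median was 0.39, beside 0.01 for all genes of that level. Among the 26 members with a mean from 10 to 100, 8 were positive and the median was -0.29, beside -0.14 for all genes of that level. In that lower range 4 members were called, against 27.8% of all genes, and in the upper range 2 were called, against 10.3% of all genes. The 19 members below the limit held 1 to 57 reads over all 6 libraries each, and 14 of them had the higher mean in KYSE70. Among these, HIST1H2AK was the only one whose lines did not overlap, with 6, 11 and 11 reads in KYSE70 and 5, 0 and 1 in NRF2null-KYSE70, and it was chosen for mention after its values were seen.

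The 18 members with no read included both testis genes of the H2A-H2B pair at the edge of the HIST1 cluster, HIST1H2AA and HIST1H2BA. Other absences have a limit in the annotation. HIST1H2AD and HIST1H3D share exon bases with the same further protein-coding gene on their strand, as HIST1H2AM does with HIST1H3J, so the zeros of these members are uncertain. HIST2H3A and HIST2H3C are near-identical copies, and HIST2H3A shared every 150-base stretch of its transcripts with HIST2H3C. Likewise HIST2H4A shared 92.2% of such stretches with HIST2H4B, and HIST1H4J shared 88.8% with HIST1H4K, so the levels of these genes are uncertain. Of the 69 annotated members 13 shared at least 1 such stretch with another member.

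H2A and H2B genes that stand head to head formed 12 pairs with starts within 500 bases, and both genes were tested in 7 of them. In 4 pairs the estimates had the same sign and in 3 they were opposite. HIST3H2A and HIST3H2BB start 230 bases apart and were both called higher. HIST1H2AH and HIST1H2BK start 251 bases apart and moved apart, HIST1H2BK with the rise and HIST1H2AH with the decrease of adjusted p 0.0478. The HIST1H2AH call was lost under 12 of 18 alternative settings, and its lines overlapped. The other opposite pairs were HIST1H2AG with HIST1H2BJ and HIST2H2AC with HIST2H2BE, of which only HIST2H2AC passed adjusted p.

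**Figure D4:**
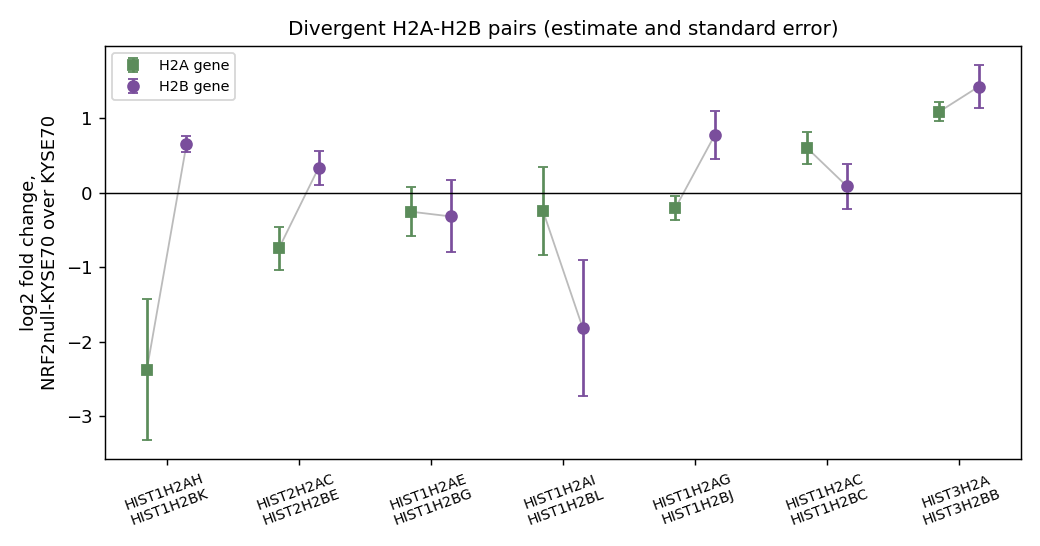
Log2 fold change (NRF2null-KYSE70 over KYSE70) of the H2A gene (squares) and H2B gene (circles) in the 7 divergent pairs with both genes tested; bars are SE and grey lines join a pair. HIST3H2A and HIST3H2BB lay together at 1.09 and 1.43, and HIST1H2AH and HIST1H2BK lay apart at -2.37 and 0.65. The call of HIST1H2AH was lost under 12 of 18 alternative settings.

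The DNA between the starts of these pairs is shown because the genes of one pair rose together and those of the other did not. This choice was made with the values seen, and whether the letters bear on them was not tested. The 300 bases are RefSeq sequence of build GRCh38.p14, from 250 bases before to 50 after the start of the named gene, and include the start of its partner on the other strand. Capitals mark the NF-Y box (CCAAT), the box that binds TBP (TATAAA) and the octamer (ATTTGCAT), read on either strand, and marks may overlap.
HIST3H2A (chr1:228457824-228458123, minus strand): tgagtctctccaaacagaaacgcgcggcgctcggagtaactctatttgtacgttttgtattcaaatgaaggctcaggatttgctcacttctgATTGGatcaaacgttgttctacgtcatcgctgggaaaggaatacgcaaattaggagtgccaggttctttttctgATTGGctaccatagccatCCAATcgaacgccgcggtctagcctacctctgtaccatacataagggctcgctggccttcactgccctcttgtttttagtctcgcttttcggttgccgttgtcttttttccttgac
HIST1H2BK (chr6:27146809-27147108, minus strand): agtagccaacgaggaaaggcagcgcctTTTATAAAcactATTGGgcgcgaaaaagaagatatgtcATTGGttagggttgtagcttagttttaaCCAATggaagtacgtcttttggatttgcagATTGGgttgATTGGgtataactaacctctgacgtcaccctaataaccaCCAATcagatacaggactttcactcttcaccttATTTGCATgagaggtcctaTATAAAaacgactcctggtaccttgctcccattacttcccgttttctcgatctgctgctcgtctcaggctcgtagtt

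NF-Y is a factor of many promoters, TBP positions the start of transcription, and the octamer is bound by the POU factors OCT1 and OCT2. The HIST3H2A window held CCAAT 3 times and no exact TATAAA or octamer. In the HIST1H2BK window there were 6 CCAAT, 3 TATAAA and 1 octamer. Of the 65 members with a RefSeq promoter, 84.6% held CCAAT, 66.2% TATAAA and 40% ATTTGCAT, compared with 35.7%, 11.95% and 1.80% of all 27305 promoters of that length. The octamer was found in 68.8% of H2A and 77.8% of H2B promoters and in none of the H1 and H4 promoters, whereas CCAAT was in all H1, H2A, H2B and H3 promoters and in 23.1% of H4 promoters. A window without these letters says nothing of whether the factor acts there.

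By position, both tested members of the HIST3 cluster were called higher. Over all tested genes the shares called were 7.23% higher and 7.43% lower, 14.7% in all, with 57.6% past adjusted p. In HIST1, with 30 tested, 4 were called lower and none higher, while HIST1H1C, HIST1H2BK and HIST1H2AC rose on adjusted p alone. In HIST2, with 5 tested, none was called and HIST2H2BD and HIST2H2AC fell on adjusted p alone. Other protein-coding genes within 1 Mb were tested beside them. For HIST3 there were 17, none called, with a median log2 fold change of -0.01. For HIST2 there were 26, none called, with a median of -0.31. Of 25 beside HIST1 (median -0.15), RIPOR2 was called higher at 197 and 831 normalized counts in KYSE70 and NRF2null-KYSE70, and BTN3A3, TRIM38 and ZSCAN31 were called lower.

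Tested members with a transcript or RefSeq gene span of at least 1000 bases, which reaches past a typical stem-loop end, included HIST3H2A, HIST3H2BB, HIST1H2BK, HIST1H2AC, HIST1H2BC, HIST1H2BD and HIST1H3H. HIST1H2BK and HIST1H2BD entered by RefSeq spans of 8566 and 13229 bases, as their longest GENCODE transcripts have 495 and 789. The GENCODE gene span was not used, and HIST1H3J (longest transcript 522 bases, RefSeq span 512) stayed out. Of the 14 members counted as long 10 had positive estimates, with a median of 0.20. Of the other 23 tested members 5 were positive, with a median of -0.34. This split was made with the values known and is a description. HIST1H1C, whose annotation ends at the stem-loop, was the member with the highest mean outside it.

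Genes that make, cut, bind and degrade histone mRNA did not pass both thresholds. Of 22 on this list, all tested, none was called, 4 were higher and 9 lower on adjusted p alone, and the median log2 fold change was -0.07. Beside these, 57.6% of all tested genes passed adjusted p, and 65.5% of those with a mean of at least 100 normalized counts. The lowest estimate on the list was -0.87 for CDK2 (adjusted p = 1.2e-07), and the highest was 0.35 for SYMPK (adjusted p = 0.000897). SLBP had a log2 fold change of 0.11 (SE 0.05, adjusted p = 0.0897, or 0.0137 without library 1 of the clone in a range up to 0.988), with 7213, 7482 and 7410 normalized counts in KYSE70 and 7566, 7846 and 8401 in the clone. NPAT, the coactivator of histone transcription, had a log2 fold change of -0.08 (adjusted p = 0.257) and CASP8AP2 (FLASH) one of -0.05 (adjusted p = 0.654). Neither passed the test, although with scaling to total reads NPAT was at -0.15 (adjusted p = 0.0280) and LSM10 at -0.19 (adjusted p = 0.0351).

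Within the U7 particle that cuts the 3' end, LSM11 fell by 0.70 on the log2 scale (SE 0.09, adjusted p = 3.31e-05), from 852, 901 and 942 to 613, 511 and 537. LSM10, its partner, had a log2 fold change of -0.11 (adjusted p = 0.182), and ZNF473, which also belongs to the cutting machinery, one of 0.14 (adjusted p = 0.126). ERI1, an exonuclease that trims the end of histone mRNA, fell by 0.76 (SE 0.09, adjusted p = 7.59e-06), with 1784, 1899 and 1680 in KYSE70 and 1094, 1146 and 929 in NRF2null-KYSE70. With the median of its chromosome arm subtracted, the log2 fold change of ERI1 was -0.38 (adjusted p = 0.00212), within a range of adjusted p up to 0.00230 over the alternatives. On adjusted p 2 of these 7 genes fell, both without overlap and both short of the fold cut-off. Among all tested genes 28.3% were lower on adjusted p, and 63.4% did not overlap in either direction.

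The replication-independent histones, many of which are made from polyadenylated mRNA and outside S phase too, were mostly lower. Of 10 tested genes 7 were lower and 1 higher on adjusted p, none past the fold cut-off, and the median was -0.21. Among all tested genes 28.3% were lower and 29.3% higher on adjusted p. H1F0, a linker histone of slowly dividing cells, fell by 0.63 on the log2 scale (adjusted p = 1.57e-07) from 12194 ± 84.3 to 7879 ± 349 normalized counts (SD, n = 3). The centromeric H3 variant CENPA rose by 0.29 (adjusted p = 0.00216), from 2493 ± 147 to 3055 ± 217. H1FX, H2AFX, H2AFV, H2AFY, H2AFY2 and H3F3B fell by between 0.13 and 0.31. H1FX was -0.59 with its chromosome arm centred and had an adjusted p of 0.0598 without the trend, and H2AFV did not pass under 5 alternatives (adjusted p 0.0524 to 0.120), among them those without KYSE70 library 2, KYSE70 library 3 or library 3 of the clone. With quantile normalization H2AFV, H2AFY and H3F3B were lower still, at -0.26, -0.38 and -0.34. H2AFZ (-0.11, adjusted p = 0.124) and H3F3A (-0.0002, adjusted p = 0.998) did not pass.

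For the next 2 lists, the shares of all tested genes to set beside them were 28.3% lower and 29.3% higher on adjusted p. Of 19 tested histone chaperones, 9 were lower and 3 higher on adjusted p and none was called. Of 18 S phase genes, 13 were lower and 1 was higher on adjusted p, and only PCNA, the clamp of the replication fork, was called, with 30799 ± 703 against 14514 ± 580 normalized counts (SD, n = 3). Its log2 fold change of -1.09 became -0.32 when the median of its chromosome arm, -0.77, was subtracted, and PCNA was then not called. The S phase median was -0.30 and its sum was 456990 to 462269 in KYSE70 and 378804 to 387693 in NRF2null-KYSE70. TYMS, with means of 162863 in KYSE70 and 127725 in NRF2null-KYSE70, was the largest part of this sum. In normalized counts, TYMS and PCNA fell the most of the list. That lower sum stood beside higher H1, H2A and H2B sums and a lower H3 sum, and its part in them was not tested. Without the leading gene of each class the ratios of means were 0.62 for H1, 0.99 for H2A, 1.01 for H2B and 0.78 for H3.

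RNAs that lack a poly(A) tail were set beside the histone members because most cluster histone mRNAs lack one too. Only RN7SL1 and RN7SL2, near-identical RNAs of the signal recognition particle, were tested among 9. RMRP, RPPH1, RN7SK, SCARNA2 and SCARNA10 had no read in any library, and the other 2 had too few to test. RN7SL2 was called lower with a log2 fold change of -1.34 (adjusted p = 1.31e-05), and RN7SL1 had one of -0.81 (adjusted p = 0.00365). The sum of the list, nearly all of it RN7SL1 and RN7SL2, was 4956, 6037 and 9212 in KYSE70 and 2695, 2932 and 3605 in NRF2null-KYSE70. Its highest value was in KYSE70 library 3, the library in which most members were highest too, and the part of this in the histone results was not tested.

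**Figure D5:**
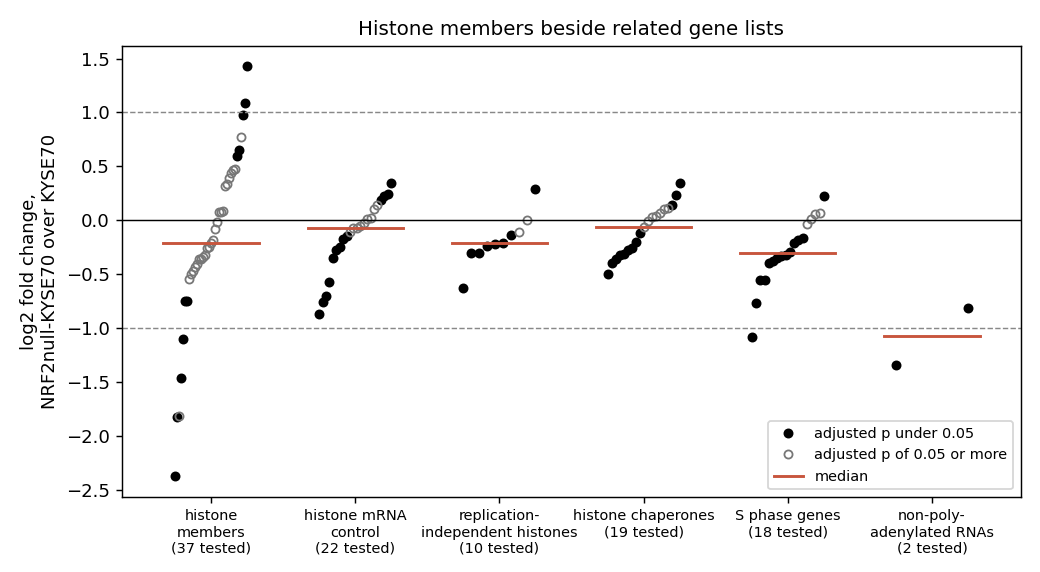
Log2 fold change (NRF2null-KYSE70 over KYSE70) of each tested gene of the histone members and of 5 related lists; filled points passed an adjusted p of 0.05, red lines are medians, dashed lines mark the fold cut-off, and the place along the x axis within a list is the rank. The histone members spread from -2.37 to 1.43, with a median SE of 0.33. The histone mRNA control genes lay between -0.87 and 0.35, with a median SE of 0.07, so the 2 ranges differ in precision too.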

How the data were processed

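RNA was sequenced (150 bp reads) from 3 libraries of each line. The authors aligned reads to hg38 with STAR 2.6.90c, counted genes with featureCounts 1.5.1 and deposited counts normalized with DESeq2, a signal that is no longer whole. In every library, dividing the deposited values by the smallest step gave whole numbers (100% of values within 0.1), so reads were recovered. The methods name a RefSeq annotation, but rows carry Ensembl identifiers; strand setting and RNA selection are not given in the sources used here. Genes with a mean of at least 10 normalized counts (15994) were tested with limma 3.58.1 (trend) in R 4.3.3 on log2(normalized count + 1), over all 6 libraries, with Benjamini-Hochberg adjustment over all tested genes. DESeq2 1.42.0 and edgeR 4.0.16 on recovered reads, other scalings, filters, pseudocounts and libraries left out were alternatives. The fit was tested on simulated data. Positions came from GENCODE 44 (hg38; 69 of 74 members) and promoters from RefSeq. Counting error and spread between libraries limit low genes.

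The members and gene lists were chosen with earlier results of these data known. Values in every library are given for members past both thresholds, the 8 members with the highest mean, and their divergent H2A-H2B partners; other genes were named as 7 of the histone mRNA control list, all tested replication-independent histones, and genes of other lists past both thresholds. Any further gene was named beside a count after its values were seen. The table names each library by its line only, so libraries are numbered by their order within a line. Columns 3 to 8 of the table were all used.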

Additional observations from a re-analysis of the deposited data

How the results depend on the processing

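HIST3H2A, HIST3H2BB and HIST1H3J stayed past both thresholds under all 19 alternatives. The count of members called was 6 and became 3 with a minimum mean of 50, which left fewer genes to test, and 11 without the fold cut-off. Members called higher were 2, 3 with quantile normalization, 5 without the fold cut-off and 1 without overlapping or non-coding members, an alternative chosen after seeing the data. Members called lower were 4, 2 with a pseudocount of 5, with no filter and with quantile normalization, and 1 with a minimum mean of 50. Leaving out 1 library at a time gave 4 to 6 members called, 2 to 3 higher and 1 to 4 lower, the fewest lower without KYSE70 library 3; the median log2 fold change of the members then ran from -0.30 to 0.04, and it was 0.21 with a minimum mean of 50. Without the fold cut-off the counts were 13 histone mRNA control genes, 8 replication-independent histones, 12 chaperones, 14 S phase genes and 2 non-polyadenylated RNAs. The last count was also 2 with no filter, and 1 to 2 with a library left out. Centring each chromosome arm on its median left 0 S phase genes called. The cause of these shifts was not tested. Single genes near 0 turned sign. HIST1H2BC was -0.050 without KYSE70 library 1 and -0.22 without NRF2null-KYSE70 library 3, in a range of -0.22 to 0.28 over the libraries left out. CASP8AP2 was 0.019 and 0.0037 without library 2 of KYSE70 and of NRF2null-KYSE70 (range -0.14 to 0.019). H3F3A was 0.045 without KYSE70 library 3 and 0.051 without NRF2null-KYSE70 library 1 (range -0.048 to 0.051), and 0.040 with arms centred. SLBP was -0.0012 with arms centred. No paired analysis was possible because the columns carry no replicate numbers.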
